A study of Equus caballus with 6 samples.

Results

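The genes described here are Ensembl genes that were expressed in the testis of every immature Mongolian horse colt and had almost no counts in the testis of any mature stallion. They were chosen by their own counts: at most 3 counts in each of the 3 libraries from after sexual maturation (ASM), and a CPM (the count scaled to the library total) of 1 or more in each of the 3 libraries from before sexual maturation (BSM), for genes over 150 and under 9000 bp. Of the 26991 Ensembl genes in the count table, which lists 58724 genes in all, 20814 lay in this length range and 64 met the rule. The BSM testes came from colts aged between 11 and 13 months, and the ASM testes from stallions aged between 3 and 4 years. All 6 animals were healthy horses of 1 breed that were gelded, and each horse gave 1 strand-specific library of poly(A) RNA from testis, so the stages are also different animals.

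Before puberty the seminiferous tubules hold dividing Sertoli cells and early germ cells, and the spaces between them hold Leydig cells, vessels and connective tissue. At puberty the Sertoli cells stop dividing, germ cells enter meiosis, and spermatocytes and spermatids come to fill most of the tubule. A library of testis tissue mixes its cell types, so fewer cells of a type and less RNA per cell cannot be told apart in these data. The deposited tables do not pair the Ensembl identifiers with gene symbols, and the horse gene table used here lists no Ensembl identifiers, so the function, position and sequence of the 64 genes were not analysed here, and the tissue labels could not be checked against marker genes of the testis cell types. Members other than the 2 named ones are called by their gene length, which count, FPKM (the CPM divided by the gene length in kilobases) and library total give to the base.

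The libraries held between 14015484 and 15910529 counts in BSM and between 17195381 and 19721986 in ASM. At this depth a gene needed 15 or 16 counts to reach 1 CPM in a colt, and 3 counts were between 0.152 and 0.174 CPM in a stallion. The rule by itself thus sets every colt library at least 5.73-fold above every stallion library. A difference between the stages in these genes is a description of how they were chosen and supports nothing about them.

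The 64 genes were a small part of the immature transcriptome. They made up 0.467% of the 13718 Ensembl genes of this length range with a CPM of 1 or more in every colt. Together they took 0.0236% of all counts of BSM1, 0.0133% of those of BSM2 and 0.0210% of those of BSM3, a mean of 0.0193% ± 0.00535 (SD, n = 3). In the stallions the share was between 0.000395% and 0.000489%. Summed over the genes, 8766 counts in BSM stood against 247 counts in ASM, a pooled ratio of 43.8 in CPM. Its nominal 95% exact binomial interval was 38.6 to 49.9. Such intervals of BSM to ASM ratios, here and below, take in counting error only and leave out the spread between horses. The rule chose the genes by these counts, so the intervals lack 95% coverage and only describe the counts. With the stages exchanged, the same rule found 74 Ensembl genes, or 0.560% of the 13212 with a CPM of 1 or more in every stallion. Among assembled genes, which carry no Ensembl identifier, 264 met the rule, of the 6603 that had a CPM of 1 or more in every colt.

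Most of the genes were weakly expressed even in the colts. The mean CPM over the BSM libraries ran from 1.19 to 14.1 with a median of 2.36, whereas the median over the 13718 Ensembl genes was 26.5, and 0 of the 64 genes lay above that value. A mean of 10 CPM or more was reached by 2 genes, a mean of 5 to 10 CPM by 6, a mean of 2 to 5 CPM by 31 and a mean of 1 to 2 CPM by 25. Per length, the mean FPKM in BSM ran from 0.520 to 22.7 with a median of 2.03, against a median of 17.1 over the 13718 genes. A mean FPKM over 1 in BSM, the threshold the study used for an expressed gene, was found for 50 of the 64. FPKM was over 1 in every colt for 38 of them. In ASM 0 of the 64 had a mean FPKM over 1, and the highest FPKM of any of them in a stallion was 0.474.

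**Figure D1:**
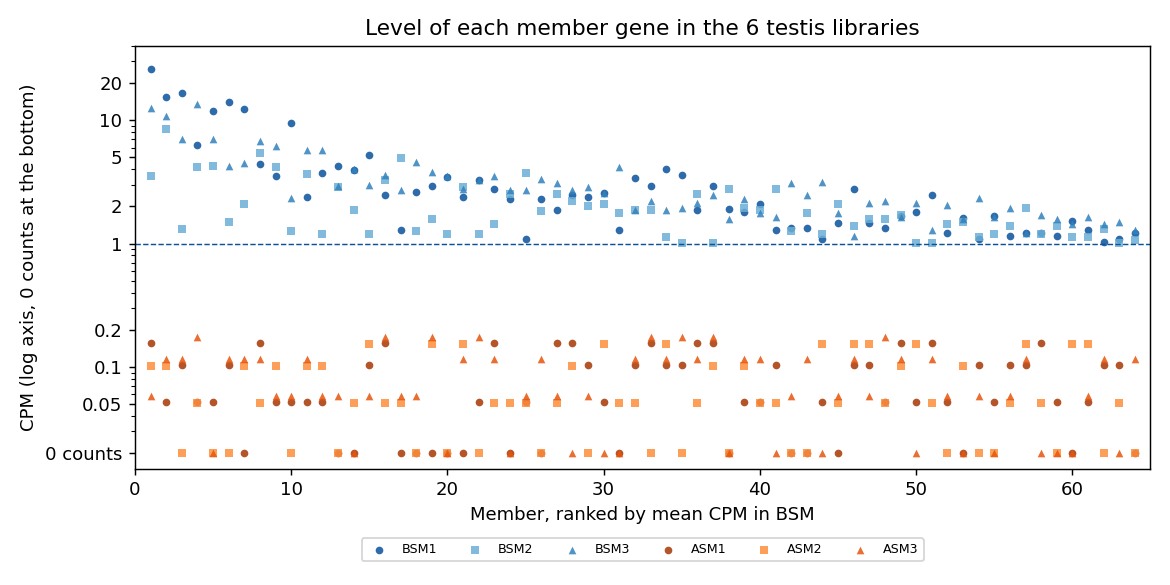
Level of the 64 genes in the 6 testis libraries. Each position on the horizontal axis is 1 gene, ranked by its mean CPM in BSM, and each point is its CPM in 1 library on a log axis, with 0 counts drawn at the bottom. The colt points lie above the dashed line at 1 CPM and the stallion points at or below 0.174 CPM, as the rule requires, and the colt points spread most among the first ranks, where BSM2 is often far below BSM1.

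ENSECAG00000012514, of 1279 bp, had the highest mean CPM in BSM. It had 409 counts in BSM1, 56 in BSM2 and 175 in BSM3, while the stallions ASM1, ASM2 and ASM3 had 3, 2 and 1. The colt libraries were far apart: the level was 26.2 CPM in BSM1 (95% exact Poisson interval 23.7 to 28.8), 3.52 CPM in BSM2 (2.66 to 4.57) and 12.5 CPM in BSM3 (10.7 to 14.5), and these intervals, which cover counting error only, did not overlap. The mean was 14.1 ± 11.4 CPM (SD, n = 3) in BSM and 0.105 CPM in ASM. Its pooled BSM to ASM ratio was 132 (nominal 95% exact binomial interval 60.2 to 360, which leaves out this spread between colts).

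ENSECAG00000003167, a short gene of 507 bp, had the highest mean FPKM in BSM. Its level was 15.3 CPM in BSM1, 8.42 CPM in BSM2 and 10.8 CPM in BSM3, from 524 counts in all, and the stallions ASM1, ASM2 and ASM3 had 1, 2 and 2 counts. Its FPKM was 30.1 in BSM1, 16.6 in BSM2 and 21.3 in BSM3, which averaged 22.7 ± 6.88 (SD, n = 3), and between 0.102 and 0.229 in the stallions. BSM1 was again the highest colt and BSM2 the lowest, but the ratio between them was 1.81, whereas it was 7.43 for ENSECAG00000012514. The pooled BSM to ASM ratio was 129 (nominal 95% exact binomial interval 55.1 to 400).

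In the stallions the genes were near the limit of detection rather than at 0 in every library. Of the 192 values of the 64 genes in the 3 ASM libraries, 56 were 0 counts, 57 were 1 count, 47 were 2 counts and 32 were 3 counts. The number at 0 counts was alike in the 3 stallions, with ASM1 at 0 for 18 of the genes, ASM2 for 21 and ASM3 for 17. The stallions differed more at 2 counts, with 15 genes in ASM1, 11 in ASM2 and 21 in ASM3. At least 1 stallion library was at 0 for 38 genes, at least 2 were at 0 for 16, and all 3 were at 0 for 2. Summed over the stallions, the genes had a median of 4 counts and at most 8.

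The 2 genes without a count in any stallion had modest levels in the colts. They were singled out after their values were seen. The gene of 726 bp had 54 counts in BSM1, 19 in BSM2 and 49 in BSM3, and was at least 16.9-fold lower in ASM when each stallion library is set at 3 counts. The gene of 417 bp had 30 counts in BSM1, 44 in BSM2 and 22 in BSM3, and was at least 12.98-fold lower on the same limit. For the other 62 genes the pooled BSM to ASM ratio ran from 11.8 to 436 with a median of 33.5. The highest ratio belonged to a gene of 2196 bp with 186 counts in BSM1, 68 in BSM2 and 99 in BSM3. It had 1 count in the 3 stallions together, so its nominal 95% exact binomial interval was wide, from 77.7 to 17265. The lowest ratio belonged to a gene of 1698 bp with 19, 31 and 17 counts in the colts and 7 in the stallions (nominal interval 5.43 to 30.5).

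In the edgeR quasi-likelihood fit over all genes, which used these same counts, the 64 genes passed the expression filter and 64 of 64 were called lower in ASM (Benjamini-Hochberg adjusted p under 0.05), where 36% of the 32954 genes tested were called lower. Since the rule used this contrast, the count follows from the choice of the genes and is no test of them. The median log2 fold change of the 64 was -4.53, against -0.21 over the Ensembl genes tested and 0.06 over all genes tested. For the 62 genes with a count in a stallion it lay between -7.90 and -3.03. Named members had -6.55 (ENSECAG00000012514) and -6.48 (ENSECAG00000003167), which moved to between -7.01 and -5.78 and to between -6.67 and -6.12 over the fits that lacked 1 library.

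The rule sets a lower limit for each colt but does not set their order, and here the colts differed. These are the values the rule used, and its limit did not act alike on the colts. Genes that met the rule but for 1 colt were 99 for BSM2, 14 for BSM1 and 11 for BSM3. The 64 genes also lay nearer the limit, at a median of 2.36 CPM against 26.5 CPM for the 13718 Ensembl genes. The shares of both are therefore set side by side as a description only. The summed level of the 64 genes was 236 CPM in BSM1, 133 CPM in BSM2 and 210 CPM in BSM3. BSM2 was the lowest colt for 35 of the 64 genes, or 54.7%, where it was the lowest for 34.9% of the 13718 Ensembl genes expressed in every colt. It was the highest colt for 9 genes, or 14.1%, against 41.4% of the 13718. BSM3 was the highest for 35 genes, or 54.7% against 30.9% of the 13718, and the lowest for 6, or 9.38% against 18.9%. BSM1 was the highest for 20 genes, a share of 31.2% that was near the 27.7% of the 13718, and the lowest for 23, or 35.9% against 46.2%. With CPM from the TMM library sizes, whose factors were 1.10 for BSM1, 1.20 for BSM2 and 1.22 for BSM3, BSM1 was the highest for 27 of the 64 genes and BSM3 for 29, while BSM2 was the lowest for 40. On that scale BSM1 was the highest for 43.4% of the 13718, BSM3 was the highest for 21.4%, and BSM2 was the lowest for 40.2%. There is 1 library per colt, so a difference between colts has no replicate and was not tested.

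**Figure D2:**
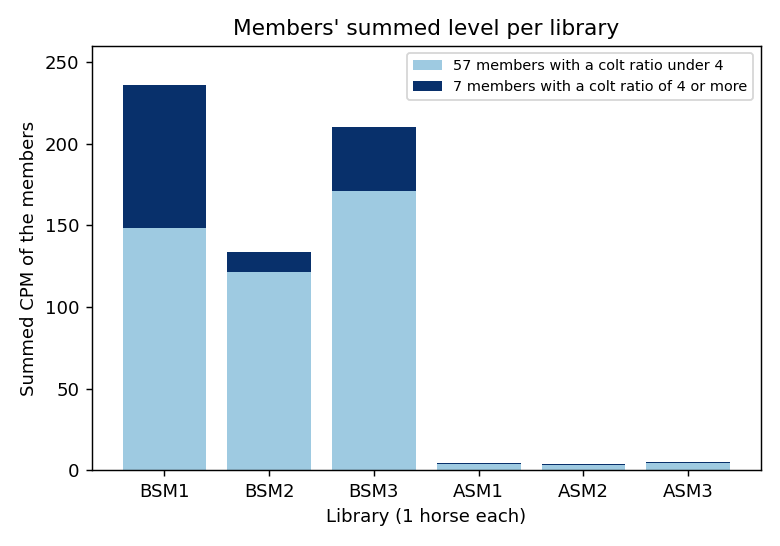
Summed CPM of the 64 genes in each of the 6 libraries, 1 horse each. The bars are split into the 7 genes whose highest colt was 4-fold or more above the lowest (dark) and the other 57 (light). The 7 genes sum to 87.7 CPM in BSM1 and 12.1 CPM in BSM2, whereas the 57 others lie between 121 and 171 CPM in the colts, and both parts are close to 0 in the stallions.

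The 10 genes with the highest mean CPM held 40.01% of the BSM counts on the 64. This ranking uses the colt values themselves, so how the sum divides is a description only. Their summed level was 120 CPM in BSM1, 36.1 CPM in BSM2 and 75.1 CPM in BSM3. BSM2 was the lowest colt for 8 of the 10 and the highest for 0. For the other 54 genes the summed level was 116 CPM in BSM1, 97.3 CPM in BSM2 and 135 CPM in BSM3, with BSM2 the lowest for 27 and the highest for 9.

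In 7 genes the highest colt was 4-fold or more above the lowest, which was 10.9% of the 64 against 4.82% of the 13718 Ensembl genes expressed in every colt. These 7 were grouped after their values were seen, and BSM2 was the lowest colt in each of them. The gene of 525 bp had the widest range of the 64, wider than ENSECAG00000012514, with 259 counts in BSM1, 21 in BSM2 and 99 in BSM3, a ratio of 12.5 in CPM. A gene of 681 bp had 220, 24 and 60 counts in the same order, one of 873 bp had 194, 33 and 63, and one of 3870 bp, the longest of the 64, had 149, 20 and 33. These genes thus had the same order of colts, with BSM1 above BSM3 above BSM2. The gene of 573 bp, with 82, 19 and 42 counts, had that order too, and the gene of 531 bp, with 58, 19 and 80 counts, had BSM3 on top. Their stallion counts were between 2 and 6 summed over the 3 libraries, where the median over all 64 was 4.

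**Figure D3:**
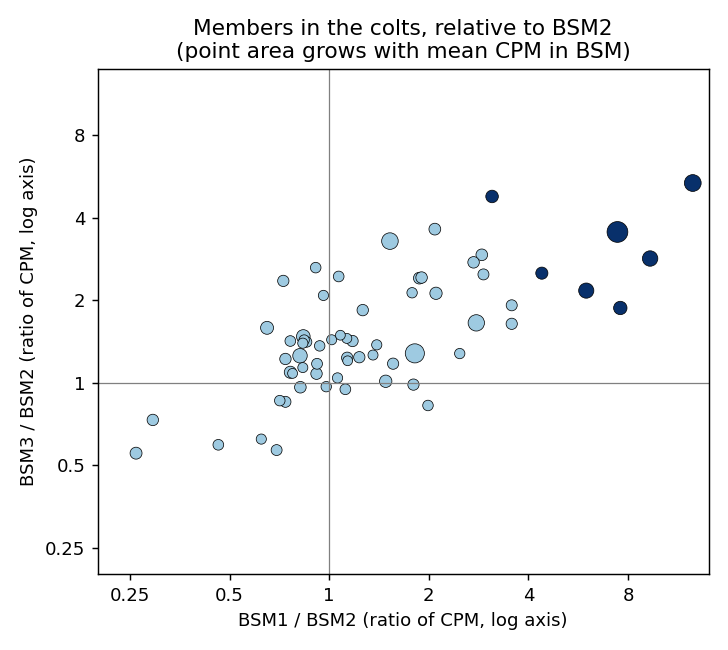
CPM of each of the 64 genes in BSM1 (horizontal) and BSM3 (vertical) relative to BSM2, on log axes, with point area growing with the mean CPM in BSM. Points right of and above the grey lines were lower in BSM2 than in the other colt. The 7 dark points, the genes with a 4-fold or larger range, lie right of and above both lines and reach 12.5 for BSM1. The 9 genes highest in BSM2 lie at the lower left.

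At the other end, 22 genes differed by less than 1.5-fold between the colts, which was 34.4% of the 64 against 61.8% of the 13718. The highest mean among the 22 was 3.37 CPM. The most even was a gene of 447 bp with 26 counts in BSM1, 27 in BSM2 and 23 in BSM3, a ratio of 1.03. The shortest of the 64, a gene of 322 bp, was also even at 36, 40 and 38 counts, and with 2.51 ± 0.205 CPM (SD, n = 3) in the colts it had 1 count in the 3 stallions together. In 6 genes BSM2 was the highest colt and BSM1 the lowest. That is the reverse of the order in 7 of the 10 genes with the highest mean CPM. A gene of 795 bp had 20 counts in BSM1, 78 in BSM2 and 38 in BSM3, and one of 1931 bp had 17, 59 and 38. Over the 64 genes the median ratio of the highest to the lowest colt was 1.82, against 1.36 over the 13718 genes. The median count of the lowest colt was 21 for the 64 and 323 for the 13718, and the part of counting error in these ratios was not tested. Among the 6 genes with at least 50 counts in every colt the median ratio was 2.30.

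The choice was also made on 5 libraries and read in the sixth, which the choice had then not used. Without BSM1, 78 genes met the rule and 64 of them, or 82.1%, had a CPM of 1 or more in BSM1. Without BSM3, 75 genes met it and 85.3% of them had a CPM of 1 or more in BSM3. Without BSM2, 163 genes met it and 39.3% had a CPM of 1 or more in BSM2. Over all 20814 Ensembl genes of the length range, the share with a CPM of 1 or more was 69.0% in BSM1, 69.0% in BSM2 and 70.4% in BSM3, which is close to the same value in each colt. The 163 genes had a median of 1.85 CPM in BSM1, 2.00 CPM in BSM3 and 0.817 CPM in BSM2, and 41 of them were under 0.5 CPM in BSM2. Thus 99 Ensembl genes had 1 CPM or more in BSM1 and BSM3, at most 3 counts in every stallion and under 1 CPM in BSM2, whereas 14 missed the list through BSM1 alone and 11 through BSM3 alone.

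**Figure D4:**
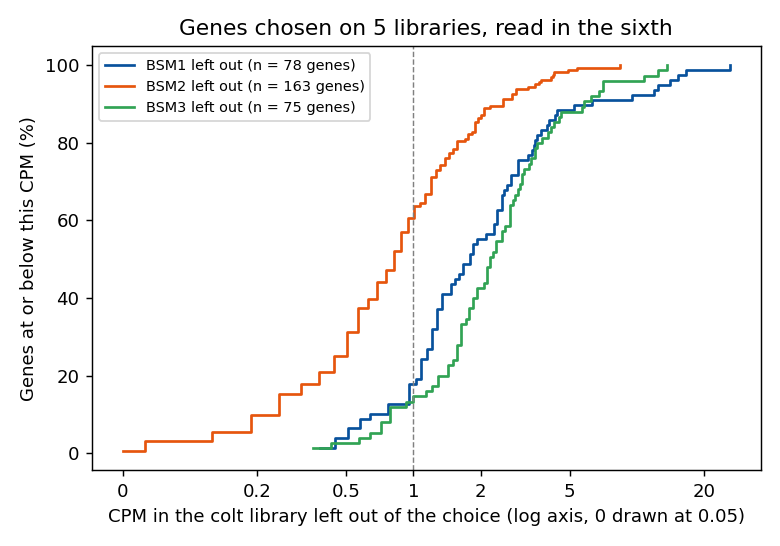
Genes chosen on 5 libraries, read in the colt library left out. Each curve gives the percentage of those genes at or below a CPM (log axis, with 0 drawn at the left edge) in the colt that the choice did not use, and the dashed line marks 1 CPM. The curves for BSM1 and BSM3 reach 1 CPM with fewer than 1 in 5 genes below it, and the curve for BSM2 leaves 39.3% of its 163 genes above it.

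The length of the list thus depended on BSM2 more than on the other colts. Of the 4159 Ensembl genes of the length range with at most 3 counts in every stallion, 3834 were under 1 CPM in every colt and 261 reached it in 1 or 2 colts only. A CPM of 1 or more in a single colt was found for 69 genes in BSM1, 50 in BSM3 and 18 in BSM2. Over the 21717 Ensembl genes with a count other than the 64, BSM2 was also the colt whose profile was nearest to the stallions. Its Pearson correlation with the ASM mean was 0.863 on the log2(CPM + 1) scale, against 0.831 for BSM3 and 0.788 for BSM1, across genes that are not independent and share 1 library per colt. The summed level of the 64 genes was highest in BSM1 and lowest in BSM2. The 57 genes with a range under 4-fold, a split made on the colt values themselves, summed to 148 CPM in BSM1 and 171 CPM in BSM3. Whether the level of the 64 genes and the correlation with the stallions are related was not tested.

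The same was done for the stallions. Without ASM1, 100 genes met the rule and 64.0% of them had at most 3 counts in ASM1. The share was 58.2% of 110 genes for ASM2 and 75.3% of 85 genes for ASM3. At most 3 counts were found for between 23.3% and 24.7% of all Ensembl genes of the length range. The genes chosen already had at most 3 counts in the other stallions, so a share above that of all genes follows from the choice. Under 0.5 CPM in the stallion left out were 97 of the 100 genes for ASM1, 105 of the 110 for ASM2 and 81 of the 85 for ASM3. The highest count that a gene chosen without a stallion had in that stallion was 17 for ASM1, 82 for ASM2 and 34 for ASM3.

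At the edges of the rule, 28 of the 64 genes had a highest stallion count of 3 and a median mean level of 2.25 CPM in BSM, and just outside it 37 genes with a highest stallion count of 4 had a median of 2.99 CPM. On the colt side, 36 of the 64 had a lowest colt between 1 and 1.5 CPM. The lowest value inside was 1.01 CPM and the highest outside was 0.999 CPM, and 142 further genes with at most 3 counts in the stallions had a lowest colt between 0.5 and 1 CPM.

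The lengths of the 64 genes were shifted to lower values against those of all genes expressed in the colts. Their implied length ran from 322 to 3870 bp, with quartiles of 652.5 and 1835 bp and a median of 1251.5 bp, against a median of 1524 bp and quartiles of 957 and 2397 bp over the 13718 Ensembl genes. Under 600 bp were 15 of the 64, or 23.4%, against 8.78% of the 13718. Over 4000 bp were 0% of the 64 and 7.25% of the 13718. Of the 15 genes with the highest mean FPKM, 10 were under 600 bp. FPKM divides by length, so this ranking by itself favours short genes. Lengths of genes are not replicates of a condition, and the difference was not tested. A longer gene collects more counts at the same level per length, and what part the limit of 3 counts had in the lengths was not tested.

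**Figure D5:**
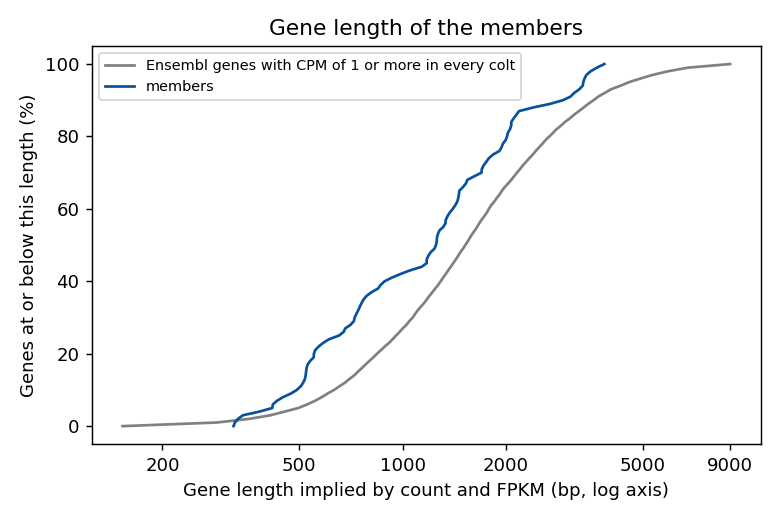
Cumulative distribution of the gene length implied by count, FPKM and library total, in bp on a log axis, for the 64 genes (blue) and for the 13718 Ensembl genes with a CPM of 1 or more in every colt (grey). The blue curve lies left of the grey one from 400 bp upwards and ends at 3870 bp, and the medians are 1251.5 and 1524 bp.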

How the data were processed

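RNA-Seq was performed on testis of 3 BSM and 3 ASM horses. The authors aligned paired-end reads with TopHat 2.0.12 to the Ensembl horse genome (release not given in the sources used here), assembled transcripts with Cufflinks and counted reads per gene with HTSeq 0.6.1, and the deposited counts were not normalized. The deposited FPKM were computed by the authors from count and gene length. The strand setting of the counting is not given in the sources used here, so overlapping or near-identical genes are uncertain. Stages were taken from the tissue labels. The ASM columns do not carry the sample titles, and were used as the 3 libraries of that stage.

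The members, tests and lists were chosen with earlier results of these data known. Counts were fitted with edgeR 4.0.16 in R 4.3.3 (filterByExpr, TMM, quasi-likelihood F test, stage as the only term, Benjamini-Hochberg adjustment, threshold 0.05). DESeq2 1.42.0, limma 3.58.1 on log2 FPKM, other scalings, filters and limits of the rule, and leaving out each library were alternatives. Fits were run on simulated counts with far fewer changed genes than were called here, so that check says little about this contrast. No 2 libraries were near-duplicates (chi-square per degree of freedom of at least 11.3 between any pair). Named were the members with the highest mean CPM and the highest mean FPKM in BSM. Symbol-based lists and markers were not run, because the RefSeq gene table lists no Ensembl identifiers, and no sequences are shown. Precision is limited by 14015484 to 19721986 counts per library and 1 library per horse.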

Additional observations from a re-analysis of the deposited data

How the results depend on the processing

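The number of genes meeting the rule, 64, depended on its limits. It was 2 with 0 counts and 16 with at most 1 count in every stallion, 390 with at most 10 counts, 206 with 0.5 CPM and 15 with 2 CPM in every colt. TMM library sizes gave 43, the Ensembl total 83 and no length limit 66. Leaving out each library gave between 75 and 163 genes, with 163 without BSM2, 110 without ASM2 and 100 without ASM1. The 64 genes were called lower in every fit, which their choice on this contrast fixes and which is no sign of stability. Their median log2 fold change, -4.53, was -4.96 with library size only, which moved the median of all genes from 0.06 to -0.40. The limma fits used FPKM with a pseudocount, no TMM and another expression filter. With them the median of the 64 was -1.46 on log2(FPKM + 1) and -3.53 on log2(FPKM + 0.1). With the 2 genes at 0 in every stallion set at their bound, an alternative chosen after seeing the data, it was -4.38. With the column number as a replicate block it was -4.54. The numbers did not pair the horses: the deviations of same-numbered libraries from their stage means correlated between -0.0593 and 0.0409. Of the 6 genes with at least 50 counts in every colt, 3 were highest in BSM1, 0 in BSM2 and 3 in BSM3. The median length of the 2 genes at 0 in every stallion was 571.5 bp. With a limit of 0.5 CPM, 60.8% of the genes chosen without BSM2 met the limit there, against 39.3% with 1 CPM. At 0.5 CPM the share was 85.8% for BSM1 and 87.3% for BSM3. Over all Ensembl genes of the length range it was between 73.4% and 74.3% in the colts. For the limits and libraries that moved a value, the cause was not tested.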
